A study of Mus musculus with 8 samples.

Results

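Mouse haematopoietic stem and progenitor cells (HSPCs) that lacked beta-catenin and Hoxa9 and had been given wild-type PRMT1 were compared with wild-type cells carrying an empty vector, to describe what still differed between them. The comparison takes 4 of the study's 8 libraries, 2 named dKO_PRMT1 and 2 named WT_EV here. It covers autosomal genes only. Of the 24421 genes of the count table, 23295 lie on autosomes, and 12317 of these had enough reads to be tested.

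The groups are double knockout (dKO) cells transduced with wild-type PRMT1 (dKO_PRMT1), dKO cells with a catalytically dead PRMT1 (dKO_MUT), dKO cells with an empty vector (dKO_EV) and wild-type cells carrying the empty vector (WT_EV), with 2 libraries in each. One genotype label, that of dKO_MUT replicate 2, names PRMT2 in place of PRMT1. The series title gives the genes of the dKO as beta-catenin and Hoxa9, and its design text says that the dKO HSPCs were taken from mice after a primary transplant. Every group had been transduced with a vector, and whether the wild-type cells came from such hosts too is not stated. Not given in the sources used here are the deleted exons, the driver of the deletion, the age and number of the mice, the sorting gate and the species of the PRMT1 insert. Whether the 2 libraries of a group come from different animals or cultures is not stated, and the p-values therefore cover only variation between these libraries, which may be technical.

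PRMT1 is the main enzyme that places asymmetric dimethyl marks on arginines of histones, RNA-binding proteins and signalling proteins. Beta-catenin (Ctnnb1) carries canonical Wnt signals to the nucleus and also joins cadherins at the membrane, and Hoxa9 is a homeobox transcription factor of early blood progenitors that is best known from myeloid leukaemia. HSPCs give rise to all blood lineages. A culture or graft of such cells is a mixture, in which granulocyte, monocyte, mast cell, megakaryocyte and erythroid precursors each bring their own genes.

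Library totals were 19846993 and 19773520 counts in dKO_PRMT1 and 20608081 and 18699847 counts in WT_EV, and 96.8% of the counts were autosomal in each of these 4. Over all 8 libraries the totals ran from 15531344 to 22329749. Values are CPM, counts scaled to a common library size, which do not allow levels of different genes to be compared because they are not divided by gene length. Progenitor markers were present: the stem cell factor receptor Kit had 176 and 176 CPM in dKO_PRMT1, against 149 and 142 CPM in WT_EV, and Cd34 had 112 and 108 CPM in dKO_PRMT1, against 166 and 168 CPM in WT_EV. Some markers of primitive stem cells had low counts. Procr was at 1.19 and 1.67 CPM in dKO_PRMT1, against 2.89 and 2.39 CPM in WT_EV. Slamf1 was at 0.672 and 0.522 CPM in dKO_PRMT1, against 0.811 and 0.390 CPM in WT_EV. Not all were that low, as Hlf had 8.95 and 11.1 CPM in dKO_PRMT1, against 12.6 and 13.2 CPM in WT_EV. The source label calls all 8 libraries dKO, so the groups were taken from the sample titles. In all 6 dKO libraries Xist had 0 counts, and 4 Y-linked genes with 0 counts in both WT_EV libraries were present, so sex and genotype cannot be told apart in any comparison with WT_EV.

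Prmt1 (GRCm38, chromosome 7, 44976755 to 44986420) had 1012 and 1007 CPM in dKO_PRMT1, against 195 and 199 CPM in WT_EV. Its log2 fold change of 2.36 ± 0.04 (standard error of the model, n = 2 libraries in each group) was the second largest increase among well-covered genes with an established symbol. Predicted-gene and clone names were not ranked. This is 5.13 times the WT_EV level of counts at the mouse gene, and how the insert was counted was not tested. In dKO_MUT Prmt1 had 1803 and 1817 CPM, and the difference of dKO_PRMT1 over dKO_MUT was -0.84 ± 0.03 (adjusted p = 1.38e-19). Hoxa9 (chromosome 6, 52223097 to 52227370) had 3.88 and 1.93 CPM in dKO_PRMT1, against 18.8 and 17.8 CPM in WT_EV, a change of -2.65 ± 0.33. Ctnnb1 (chromosome 9, 120933400 to 120960507) had 384 and 382 CPM in dKO_PRMT1, against 459 and 470.4 CPM in WT_EV, a change of -0.28 ± 0.04. With the deleted exons unknown, counts over the whole of Ctnnb1 and Hoxa9 do not check the deletion.

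A gene is called, or said to have risen or fallen in dKO_PRMT1, where the Benjamini-Hochberg adjusted p of the quasi-likelihood test of edgeR was under 0.05. A value with ± in brackets is a log2 fold change over WT_EV, unless another pair of groups is named. The ± is a standard error of the model, for 2 libraries in each group. It draws on the spread over all 8 libraries and on other genes, and is not the scatter of the compared libraries alone. Between dKO_PRMT1 and WT_EV 2875 of the 12317 genes were called, 23.3% of those tested. Of these, 1349 (11.0%) were higher in dKO_PRMT1 and 1526 (12.4%) were lower. Counts of list members given below are to be read beside these shares. The dKO_PRMT1 and WT_EV libraries did not overlap for any of the 2875, nor for many genes that were not called: both dKO_PRMT1 libraries lay above both WT_EV libraries for 31.0% of all tested genes and below them for 31.7%. At 2-fold or more (504 genes, 4.09%) the balance moved to the lower side, with 158 genes higher (1.28%) and 346 lower (2.81%). The count of called genes was 1890 and that of genes higher 869 without dKO_PRMT1 replicate 1, and the count at 2-fold or more was 233 when genes under 10 CPM were left out. Against the same WT_EV libraries 2386 genes (19.4%; 9.39% higher and 9.99% lower) were called in dKO_MUT and 1915 (15.5%; 8.28% higher and 7.27% lower) in dKO_EV. These comparisons share the WT_EV libraries, so their counts are given side by side only. Between dKO_PRMT1 and dKO_EV 1825 genes (14.8%) differed, 6.07% higher and 8.74% lower in dKO_PRMT1. Between dKO_PRMT1 and dKO_MUT 387 (3.14%) differed, 1.39% higher and 1.75% lower in dKO_PRMT1. Single libraries bore on these counts: dKO_EV against WT_EV gave 1164 without WT_EV replicate 1 and 1110 without WT_EV replicate 2, and dKO_PRMT1 against dKO_EV gave 1102 without dKO_PRMT1 replicate 1 and 1035 without dKO_PRMT1 replicate 2. For dKO_PRMT1 against dKO_MUT the counts were 173 and 208 without dKO_PRMT1 replicate 1 and 2, and 242 and 238 without dKO_MUT replicate 1 and 2. On the first principal component, which held 52.7% of the variance, the libraries lay at 14.7 and 14.4 in dKO_PRMT1, at 12.5 and 12.5 in dKO_MUT, at -5.65 and -5.96 in dKO_EV and at -21.0 and -21.5 in WT_EV. The dKO_PRMT1 libraries were the farthest from WT_EV on that axis, and dKO_EV lay between. On the second, which held 17.2%, they lay at 3.57 and 4.53 in dKO_PRMT1, at 2.38 and 1.84 in dKO_MUT, at -14.2 and -13.8 in dKO_EV and at 7.83 and 7.84 in WT_EV, and there dKO_EV was the farthest from WT_EV.

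**Figure D1:**
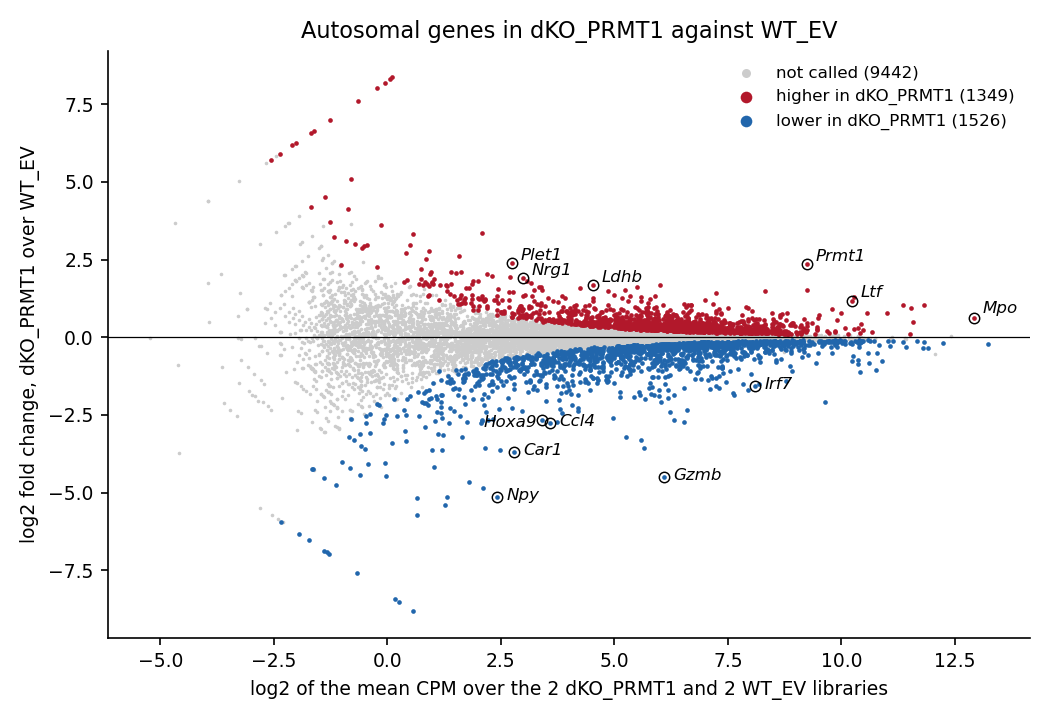
Each point is an autosomal gene, with the log2 of its mean CPM over the 2 dKO_PRMT1 and 2 WT_EV libraries on the x axis and its log2 fold change, dKO_PRMT1 over WT_EV, on the y axis. Red and blue points are the 1349 genes higher and the 1526 genes lower in dKO_PRMT1, and the named genes are ringed. The streaks at the far left are genes with 0 counts in a group, whose fitted fold change depends on the prior count.

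Among called genes with an established symbol that averaged at least 5 CPM, the largest increases besides that of Prmt1 were mostly of genes at a low level. Plet1, a surface protein of placental and epithelial progenitors, had 11.1 and 11.3 CPM in dKO_PRMT1, against 2.03 and 2.28 CPM in WT_EV (2.38 ± 0.26). Nrg1, which encodes the ErbB ligand neuregulin 1, had 11.5 and 13.5 CPM in dKO_PRMT1, against 3.75 and 2.89 CPM in WT_EV (1.91 ± 0.22). The desmosomal linker Dsp rose by 1.79 ± 0.22, the pentaspan membrane protein Prom1 (CD133) by 1.61 ± 0.10 and the cationic amino acid transporter Slc7a2 by 1.60 ± 0.20. Pald1 (1.94 ± 0.26), the lectin Clec4b2 (1.75 ± 0.22), lactate dehydrogenase B (Ldhb, 1.67 ± 0.14), the acid phosphatase Acpp (1.66 ± 0.10), the receptor phosphatase Ptpru (1.63 ± 0.20) and Mreg (1.57 ± 0.14) made up the rest of the 12. Slc7a2 stood out by group, at 17.7 and 12.7 CPM in dKO_PRMT1 and 32.9 and 28.6 CPM in dKO_EV, against 4.05 and 6.01 CPM in WT_EV. It was lower in dKO_PRMT1 than in dKO_EV (adjusted p = 3.17e-05) but above WT_EV in every library.

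The largest decreases, ranked in the same way, were of greater size. The neuropeptide Npy had 0.0517 and 0.522 CPM in dKO_PRMT1, against 11.3 and 9.46 CPM in WT_EV (-5.15 ± 0.57). The cytotoxic protease Gzmb had 6.10 and 5.38 CPM in dKO_PRMT1, against 131 and 131 CPM in WT_EV (-4.51 ± 0.11). Carbonic anhydrase 1 (Car1), an early erythroid marker, had 0.931 and 1.04 CPM in dKO_PRMT1, against 13.4 and 12.4 CPM in WT_EV (-3.70 ± 0.37). Arginase 1 (Arg1), which breaks arginine down in alternatively activated macrophages, had 0.931 and 0.731 CPM in dKO_PRMT1, against 8.92 and 11.7 CPM in WT_EV (-3.62 ± 0.44). The other 8 were Irg1 (the itaconate-producing enzyme), the chemokines Ccl7, Ccl4 and Ccl2, the collagenase Mmp13, the adhesion protein Flrt2, the scavenger receptor Cd36 and Hoxa9. In bulk RNA fewer cells of a type and less RNA per cell cannot be told apart, for these genes or for any lineage below.

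**Figure D2:**
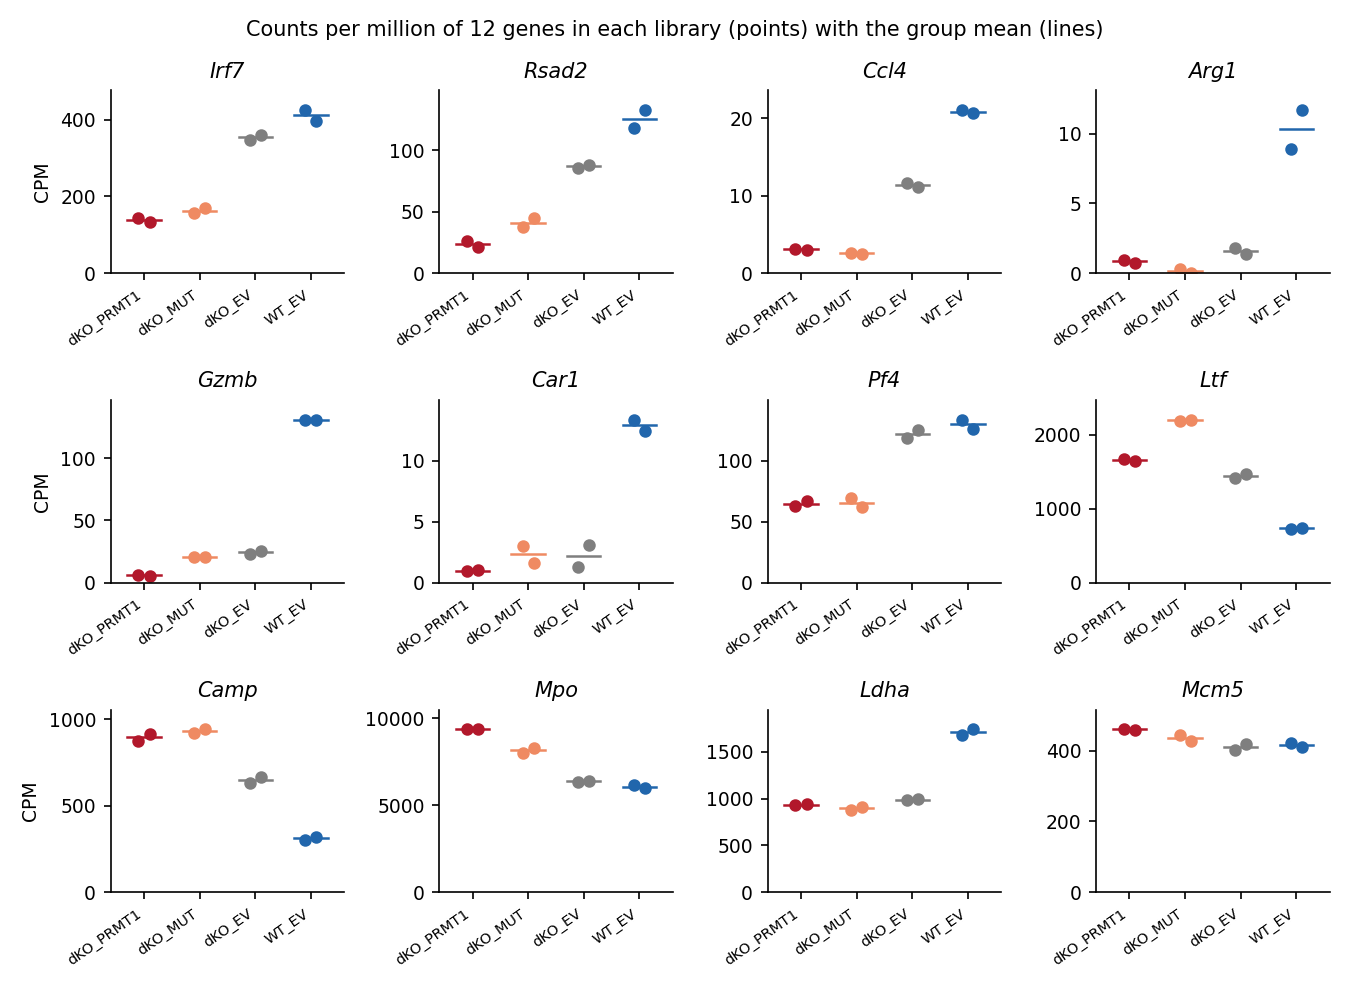
Each panel plots the CPM of a gene in every library (points, 2 in each group) with the group mean (line), for dKO_PRMT1, dKO_MUT, dKO_EV and WT_EV from left to right, on axes that start at 0. Irf7 and Pf4 in dKO_EV sit near WT_EV and in dKO_PRMT1 far below it, Rsad2 in dKO_EV lies between, Ldha is low in all dKO groups, and Mpo is highest in dKO_PRMT1.

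Interferon-stimulated genes were lower in dKO_PRMT1 in nearly every listed member. Type I interferon acts through sites called ISREs in the promoters of antiviral genes, and IRF7 amplifies the loop. Of the 50 tested members of this list 49 fell in dKO_PRMT1 and 0 rose, against 12.4% lower and 11.0% higher over all genes tested. The median log2 fold change was -0.84, beside -0.0022 over all tested genes. Only Mx2 was not called, at 0.10 ± 0.23 (adjusted p = 0.826). The regulator Irf7 had 143 and 132 CPM in dKO_PRMT1, against 425 and 397 CPM in WT_EV (-1.58 ± 0.05, adjusted p = 5.72e-24). The antiviral radical SAM enzyme Rsad2 (viperin) had 26.3 and 21.2 CPM in dKO_PRMT1, against 118 and 133 CPM in WT_EV (-2.40 ± 0.10). Ifit3, which binds viral RNA with its IFIT partners, had 30.5 and 29.6 CPM in dKO_PRMT1, against 114 and 117 CPM in WT_EV (-1.95 ± 0.08), though it shares sequence with Ifit3b and reads could be split between them. Lgals3bp had 312 and 304 CPM in dKO_PRMT1, against 655 and 641 CPM in WT_EV (-1.07 ± 0.04). Stat2 and Irf9, which encode factors that bind such sites together and were named after their values were seen, fell as well, at -0.57 ± 0.07 for Stat2 and -0.62 ± 0.08 for Irf9.

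In dKO_EV the same list moved less from WT_EV. There 17 members fell and 2 rose, against 7.27% and 8.28% of all genes, with a median of -0.13; the count that rose was 0 without either WT_EV library and 1 without dKO_EV replicate 1. In dKO_MUT 49 members fell, against 9.99% of all genes, with a median of -0.77. Irf7 showed the step between the groups, at 143 and 132 CPM in dKO_PRMT1, at 155 and 168 in dKO_MUT and at 347 and 359.6 in dKO_EV, against 425 and 397 CPM in WT_EV. The direct test between dKO_PRMT1 and dKO_EV gave -1.36 ± 0.05 for Irf7 (adjusted p = 3.67e-21). For Rsad2 it gave -1.87 ± 0.10 (adjusted p = 2.21e-17). The difference between dKO_PRMT1 and dKO_MUT was -0.79 ± 0.10 for Rsad2 (adjusted p = 1.03e-06) and -0.23 ± 0.05 for Irf7 (adjusted p = 0.00471). The summed level of the 50 members was 5289.9 to 5383 CPM in dKO_PRMT1 and 8237 to 8423 CPM in dKO_EV, against 9335 to 9349 CPM in WT_EV. The summed macrophage markers moved with it, at 10816 to 10821 CPM in dKO_PRMT1 and 14150.2 to 14619 CPM in dKO_EV, against 16523 to 16719.7 CPM in WT_EV, and their part in the interferon result was not tested.

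Promoters of 2 of these genes are shown because their members moved together and the windows hold the ISRE core. The windows run from 250 bases before to 50 bases after the start in RefSeq (GRCm38.p6), for Rsad2 at chr12:26456403-26456702 on the minus strand and for Ifit3 at chr19:34583279-34583578 on the plus strand. Capitals mark a pair of GAAA half-sites with a spacer of any 2 bases between them, or TTTC half-sites where it lies on the other strand. The motif occurs 1 time in the Rsad2 window and 2 times in the Ifit3 window, each in the TTTC orientation.
Rsad2: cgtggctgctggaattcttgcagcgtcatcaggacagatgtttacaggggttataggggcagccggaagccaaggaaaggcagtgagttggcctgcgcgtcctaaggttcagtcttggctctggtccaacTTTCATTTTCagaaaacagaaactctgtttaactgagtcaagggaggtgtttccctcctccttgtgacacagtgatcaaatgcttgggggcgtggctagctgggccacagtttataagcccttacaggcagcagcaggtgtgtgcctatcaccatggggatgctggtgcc
Ifit3: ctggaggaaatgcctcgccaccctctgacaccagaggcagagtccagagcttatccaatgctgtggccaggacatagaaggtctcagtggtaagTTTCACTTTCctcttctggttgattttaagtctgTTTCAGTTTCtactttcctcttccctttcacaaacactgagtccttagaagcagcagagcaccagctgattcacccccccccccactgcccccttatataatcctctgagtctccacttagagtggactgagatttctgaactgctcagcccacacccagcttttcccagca
The windows of Irf7 and Lgals3bp held no match. RefSeq windows were matched for 37 of the 50 listed genes, too few for a check over the whole list, which is void. Of the 37, 18 held the motif on either strand, and it occurs in the windows of 3.91% of the 9843 tested genes that were matched and in 3.44% of the 32851 windows of the table. A match is a description of these letters and not a mapped binding site.

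Antigen presentation changed in opposite directions for its 2 classes. Class I molecules display peptides cut by the immunoproteasome and loaded through TAP, and class II molecules display peptides from the endosome under the control of Ciita. In the class I and immunoproteasome list 14 of 16 members fell in dKO_PRMT1 and 0 rose, at a median of -0.47. The class I light chain B2m had 1122 and 1109.6 CPM in dKO_PRMT1, against 1978 and 2028 CPM in WT_EV (-0.84 ± 0.03, adjusted p = 7.25e-22). The heavy chains H2-K1 (-0.78 ± 0.03) and H2-D1 (-0.70 ± 0.04) fell as well, with the reservation that reads of these similar genes can be shared, and the peptide transporter Tap1 had 174 and 162 CPM in dKO_PRMT1, against 276 and 267 CPM in WT_EV (-0.69 ± 0.05). H2-Q6, H2-Q7 and H2-T22 are listed at 0 counts in all 4 libraries and were not tested. In dKO_EV the heavy chains stayed nearer to WT_EV, with -0.06 ± 0.03 for H2-K1 (adjusted p = 0.258) and -0.06 ± 0.04 for H2-D1 (adjusted p = 0.399). H2-K1 differed between dKO_PRMT1 and dKO_EV by -0.72 ± 0.03 (adjusted p = 6.81e-19).

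In the class II list 8 of 10 members rose in dKO_PRMT1 and 0 fell, at a median of 0.80. The alpha chain H2-Aa had 309 and 319.7 CPM in dKO_PRMT1 and 262 and 271 CPM in dKO_EV, against 158 and 163 CPM in WT_EV (0.97 ± 0.05 for dKO_PRMT1). The beta chain H2-Ab1 rose by 0.94 ± 0.05. The invariant chain Cd74 had 1303 and 1258 CPM in dKO_PRMT1 and 1078 and 1202 CPM in dKO_EV, against 758 and 745 CPM in WT_EV (0.77 ± 0.04 for dKO_PRMT1). H2-Eb1 rose by 0.84 ± 0.06. The 2 members that were not called, H2-Oa (2.38 and 2.30 CPM in dKO_PRMT1, against 3.04 and 2.89 CPM in WT_EV) and H2-Ob (3.31 and 3.71 CPM in dKO_PRMT1, against 4.41 and 5.12 CPM in WT_EV), had the lowest levels. Cd74 was higher in dKO_PRMT1 than in dKO_EV (adjusted p = 0.00172), so the distance from WT_EV was greater with PRMT1 than with the empty vector.

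Inflammatory chemokines and cytokines fell in 17 of 30 tested members and rose in 1 (Tnfaip2, named after its value was seen), at a median of -1.06. Ccl2 had 21.8 and 21.3 CPM in dKO_PRMT1 and 81.5 and 73.5 CPM in dKO_EV, against 133 and 142 CPM in WT_EV (-2.67 ± 0.10 for dKO_PRMT1). Ccl7 had 8.64 and 8.98 CPM in dKO_PRMT1 and 42.7 and 43.2 CPM in dKO_EV, against 89.4 and 86.4 CPM in WT_EV (-3.32 ± 0.12). Irg1 had 9.31 and 6.37 CPM in dKO_PRMT1 and 39.6 and 43.8 CPM in dKO_EV, against 96.7 and 89.4 CPM in WT_EV (-3.57 ± 0.13). Ccl9, another chemokine, had 243 and 239 CPM in dKO_PRMT1, against 639.7 and 629.7 CPM in WT_EV (-1.40 ± 0.04). The difference between dKO_PRMT1 and dKO_EV was -1.84 ± 0.10 for Ccl2 (adjusted p = 1.4e-16) and -2.41 ± 0.13 for Irg1 (adjusted p = 8.69e-17). In dKO_MUT 21 members fell and 1 rose, at a median of -0.92. Between dKO_PRMT1 and dKO_MUT, Ccl2 was higher in dKO_PRMT1 by 0.77 ± 0.12 (adjusted p = 4.07e-05) and Ccl7 by 0.84 ± 0.15 (adjusted p = 0.00035). Irg1 (adjusted p = 0.646) and Ccl9 (adjusted p = 0.568) were not called there.

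Markers of monocytes, macrophages and dendritic cells fell in 33 of 50 tested members and rose in 7, at a median of -0.58. Their sum was 10816 to 10821 CPM in dKO_PRMT1 and 14150.2 to 14619 CPM in dKO_EV, against 16523 to 16719.7 CPM in WT_EV. Lipoprotein lipase (Lpl) had 305 and 304 CPM in dKO_PRMT1, against 1254 and 1313 CPM in WT_EV (-2.08 ± 0.04, adjusted p = 2.11e-29). The macrophage glycoprotein Gpnmb fell (-1.11 ± 0.03). The scavenger receptor Cd36, which takes up oxidised lipids, had 26.6 and 22.1 CPM in dKO_PRMT1, against 159 and 164 CPM in WT_EV (-2.73 ± 0.09). The list did not move as a block. Named after their values were seen, the complement genes C1qa (-1.56 ± 0.21), C1qb (-1.87 ± 0.09) and C1qc (-1.99 ± 0.12), which mark resident macrophages, fell, as did the macrophage factor Maf (-1.85 ± 0.09), while the monocyte genes Ly6c2 (0.05 ± 0.13, adjusted p = 0.857) and Ms4a6c (0.03 ± 0.05, adjusted p = 0.746) were not called. F13a1 (0.43 ± 0.04), Vcan (0.85 ± 0.06) and the chemokine receptor Ccr2 (0.22 ± 0.04) rose.

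Lysosomal genes fell with these markers, 22 of 40 lower and 3 higher in dKO_PRMT1, at a median of -0.22, and the number higher was 1 without either dKO_PRMT1 library. Their sum was 14009.9 to 14082 CPM in dKO_PRMT1, against 18654 to 18691 CPM in WT_EV. The protease cathepsin L (Ctsl) had 90.2 and 80.5 CPM in dKO_PRMT1 and 136 and 144 CPM in dKO_EV, against 312 and 312 CPM in WT_EV (-1.87 ± 0.06 for dKO_PRMT1). Cathepsin B (Ctsb) had 1145 and 1120.1 CPM in dKO_PRMT1 and 1869 and 2008 CPM in dKO_EV, against 2338 and 2339 CPM in WT_EV (-1.05 ± 0.03). Legumain (Lgmn) fell (-1.50 ± 0.05) and cathepsin D (Ctsd) by -0.72 ± 0.04. The cathepsins B, D, L and S, Cd63 and Cd68 stand in the macrophage list too. Named after their values were seen, the proton pump subunit Atp6v1a (-0.06 ± 0.04, adjusted p = 0.376) and the membrane protein Lamp1 (-0.03 ± 0.03, adjusted p = 0.548) were not called, and the lysosomal transcription factor Tfeb rose by 0.27 ± 0.10.

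**Figure D3:**
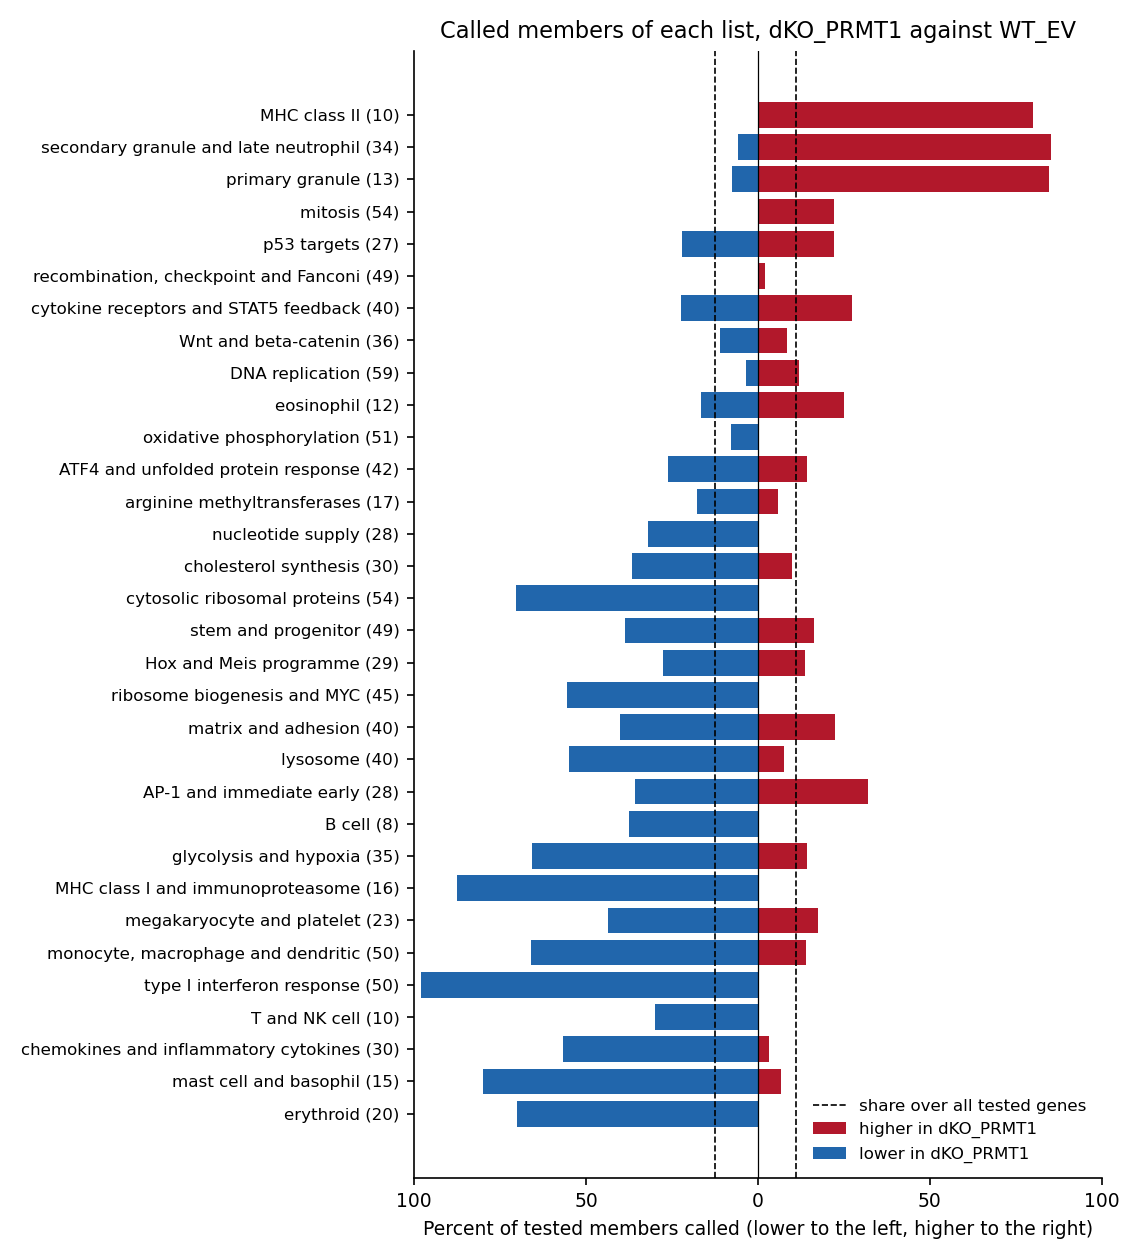
Bars give, for each of 32 gene lists, the percent of tested members called higher (to the right) or lower (to the left) in dKO_PRMT1 against WT_EV, with the number tested in brackets and the lists in order of their median. The dashed lines mark the shares over all tested genes, 11.0% higher and 12.4% lower. The class II and granule lists reach furthest to the right, and the interferon list reaches furthest to the left.

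Mast cell and basophil genes fell in 12 of 15 tested members, and 1 rose, which was Kit (0.27 ± 0.06). The median was -1.09 and the sum 1020.0 to 1023 CPM in dKO_PRMT1 and 1341 to 1367 CPM in dKO_EV, against 2144 to 2171 CPM in WT_EV. The mast cell carboxypeptidase Cpa3 had 111 and 119.6 CPM in dKO_PRMT1 and 185 and 187 CPM in dKO_EV, against 367 and 382 CPM in WT_EV (-1.70 ± 0.05 for dKO_PRMT1). The basophil protease Mcpt8 had 143 and 156 CPM in dKO_PRMT1 and 202 and 232 CPM in dKO_EV, against 415 and 444 CPM in WT_EV (-1.52 ± 0.06). Prss34, another basophil protease, had 30.7 and 34.1 CPM in dKO_PRMT1 and 55.1 and 56.1 CPM in dKO_EV, against 167 and 159 CPM in WT_EV (-2.33 ± 0.08). All 3 were lower in dKO_PRMT1 than in dKO_EV, with adjusted p = 3.07e-13 for Cpa3, 3.04e-09 for Mcpt8 and 1.91e-09 for Prss34. The IL-33 receptor Il1rl1 fell (-1.64 ± 0.10). The mature mast cell proteases Mcpt4 and Tpsab1 and the receptor Mrgprb1 had 0 counts in all 4 libraries. Gzmb stepped down across the groups, at 6.10 and 5.38 CPM in dKO_PRMT1, at 20.6 and 20.8 in dKO_MUT and at 23.2 and 25.5 in dKO_EV, against 131 and 131 CPM in WT_EV. It differed between dKO_PRMT1 and dKO_MUT by -1.85 ± 0.13 (adjusted p = 2.09e-13).

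Gzmb also leads the T and NK cell list, in which 3 of 10 tested members (30%) fell, against 12.4% of all genes. The others were Il7r (-1.85 ± 0.10) and the NK receptor Klrk1 (-1.31 ± 0.29). The sum of that list was 38.1 to 38.4 CPM in dKO_PRMT1, against 224 to 228 CPM in WT_EV, and the T cell receptor subunit Cd3e had 0 counts in all 4 libraries. Of 8 B cell members 3 (37.5%) fell, against 12.4% of all genes, and 1 fell when genes under 10 CPM were left out. Among the 3 were the adaptor Blnk (-1.03 ± 0.22) and Dntt, the terminal transferase of early lymphoid cells. Dntt had 0.259 and 0.313 CPM in dKO_PRMT1, against 8.21 and 8.51 CPM in WT_EV. The call of Igll1 was lost with DESeq2 (adjusted p = 0.0868) and with no filter on low counts (adjusted p = 0.0835). The summed B cell markers were 18.7 to 19.3 CPM in dKO_PRMT1, against 36.0 to 37.6 CPM in WT_EV. In the eosinophil list 3 of 12 members rose and 2 fell, and the number that rose was 1 without any single one of the 4 libraries. With all libraries 25% of the eosinophil list rose and 16.7% fell, against 11.0% and 12.4% of all tested genes. The receptor Ccr3 had 0 counts in both dKO_PRMT1 libraries, against 36 and 48 counts in WT_EV. Set against a floor of 3 counts in each dKO_PRMT1 library, which covers counting error only, that is at least 14.4-fold lower in dKO_PRMT1. With DESeq2 it was not called (adjusted p = 0.0942).

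Megakaryocyte and platelet genes fell in 10 of 23 tested members and rose in 4, at a median of -0.57. In dKO_EV the direction was the other way, with 10 higher and 1 lower than in WT_EV and a median of 0.21, although 2 were lower without WT_EV replicate 1. The sums were 1966 to 1976 CPM in dKO_PRMT1 and 2561 to 2562 CPM in dKO_EV, against 2383 to 2388 CPM in WT_EV. The platelet chemokine Pf4 had 62.7 and 66.7 CPM in dKO_PRMT1 and 119 and 125 CPM in dKO_EV, against 134 and 126 CPM in WT_EV (-1.01 ± 0.07 for dKO_PRMT1). The integrin subunit Itga2b (CD41) had 85.7 and 82.2 CPM in dKO_PRMT1 and 153 and 150.1 CPM in dKO_EV, against 121 and 129 CPM in WT_EV. It fell in dKO_PRMT1 (-0.57 ± 0.06) and rose in dKO_EV (0.28 ± 0.06), and these groups differed by -0.85 ± 0.06 (adjusted p = 3e-13). The thrombin receptor F2r showed the same pair of directions, at -0.71 ± 0.06 in dKO_PRMT1 and 0.46 ± 0.06 in dKO_EV (adjusted p = 8.63e-17 between them). The matrix protein Thbs1 fell (-0.65 ± 0.04) in dKO_PRMT1.

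Erythroid genes fell in 14 of 20 tested members and rose in 0, at a median of -1.23 over all members and -0.87 over the 11 that averaged at least 5 CPM. The count was 9 without WT_EV replicate 2 and 8 when genes under 10 CPM were left out. Carbonic anhydrase 2 (Car2) had 45.0 and 44.6 CPM in dKO_PRMT1 and 86.6 and 84.2 CPM in dKO_EV, against 101 and 106 CPM in WT_EV (-1.21 ± 0.08 for dKO_PRMT1). The erythroid factor Klf1 had 1.55 and 3.03 CPM in dKO_PRMT1 and 5.31 and 4.99 CPM in dKO_EV, against 10.9 and 11.5 CPM in WT_EV (-2.29 ± 0.29). Zfpm1 (FOG1), the cofactor of GATA1, fell (-0.87 ± 0.08) in dKO_PRMT1 and was not called in dKO_EV (0.16 ± 0.07, adjusted p = 0.153). The erythroid sum was 614 to 640.0 CPM in dKO_PRMT1, against 820.0 to 833 CPM in WT_EV. The globin genes of the list are at 0 counts in all 4 libraries, as is the glycolytic gene Eno1 that every cell uses, so a 0 in this table does not by itself show that a gene was silent.

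Granulocyte genes went the other way. Neutrophil precursors first fill primary granules with Mpo and serine proteases and later fill secondary granules with Ltf, Camp and Ngp under the control of Cebpe. In the primary granule list 11 of 13 tested members rose in dKO_PRMT1 and 1 fell, at a median of 0.37. The 1 that fell, Cst7 (-0.21 ± 0.06), was not called without WT_EV replicate 1, WT_EV replicate 2 or dKO_PRMT1 replicate 2. Myeloperoxidase (Mpo) had 9367 and 9352 CPM in dKO_PRMT1, 7997 and 8299.8 in dKO_MUT and 6322 and 6401 in dKO_EV, against 6127 and 5976 CPM in WT_EV (0.63 ± 0.03 for dKO_PRMT1). Neutrophil elastase (Elane) had 2587 and 2603 CPM in dKO_PRMT1 and 1576 and 1634 CPM in dKO_EV, against 1530.5 and 1469.7 CPM in WT_EV (0.79 ± 0.03). Proteinase 3 (Prtn3) rose by 0.79 ± 0.03 and the myeloid membrane protein Ms4a3 by 0.79 ± 0.04. In dKO_EV Mpo (0.07 ± 0.03, adjusted p = 0.0671) and Prtn3 (0.04 ± 0.03, adjusted p = 0.525) were not called, while Elane (0.10 ± 0.03, adjusted p = 0.0429) and Ms4a3 (0.28 ± 0.04, adjusted p = 2.12e-06) were called higher. Of the whole list 4 members were higher and 5 lower in dKO_EV. Mpo differed between dKO_PRMT1 and dKO_EV by 0.56 ± 0.03 (adjusted p = 4.76e-18). It was also higher in dKO_PRMT1 than in dKO_MUT, by 0.20 ± 0.03 (adjusted p = 2.95e-06). The summed primary granule level was 21302 to 21319 CPM in dKO_PRMT1 and 14998 to 15332 CPM in dKO_EV, against 15078 to 15215 CPM in WT_EV.

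Secondary granule and late neutrophil genes rose in 29 of 34 tested members and fell in 2, at a median of 0.67. In dKO_EV 27 rose and 1 fell, at a median of 0.57. In dKO_MUT 32 rose and 1 fell, at a median of 0.80. The summed level was 30113 to 30466 CPM in dKO_MUT and 26743 to 27162 CPM in dKO_PRMT1, against 15292 to 15298.5 CPM in WT_EV. Between dKO_PRMT1 and dKO_MUT 12 members were lower in dKO_PRMT1 and 3 were higher, against 1.75% and 1.39% of all genes. The chitinase-like protein Chil3 had 1744 and 1765 CPM in dKO_PRMT1 and 1648 and 1677 CPM in dKO_EV, against 696 and 723 CPM in WT_EV (1.31 ± 0.03 for dKO_PRMT1). The antimicrobial peptide Camp had 875 and 914 CPM in dKO_PRMT1 and 630.3 and 667 CPM in dKO_EV, against 301 and 318 CPM in WT_EV (1.53 ± 0.04). Lactoferrin (Ltf) rose by 1.18 ± 0.03, the neutrophil surface protein Cd177 by 1.47 ± 0.04, the granule factor Cebpe by 1.04 ± 0.06 and the granulocyte factor Gfi1 by 1.03 ± 0.07. The G-CSF receptor Csf3r had 205 and 205 CPM in dKO_PRMT1 and 214 and 199 CPM in dKO_EV, against 115 and 126 CPM in WT_EV (0.76 ± 0.05).

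Some late neutrophil genes, named after their values were seen, differed from WT_EV in dKO_EV but not in that direction in dKO_PRMT1. The gelatinase Mmp9 had 81.1 and 82.4 CPM in dKO_PRMT1 and 236 and 204 CPM in dKO_EV, against 100.3 and 85.7 CPM in WT_EV. Its change from WT_EV was -0.19 ± 0.07 in dKO_PRMT1 (adjusted p = 0.0532) and 1.24 ± 0.07 in dKO_EV. The chemokine receptor Cxcr2 had 25.5 and 29.6 CPM in dKO_PRMT1 and 78.0 and 72.2 CPM in dKO_EV, against 31.1 and 31.3 CPM in WT_EV, and was not called in dKO_PRMT1 (-0.18 ± 0.10, adjusted p = 0.209). Retnlg fell in dKO_PRMT1 (-0.45 ± 0.10) and rose in dKO_EV (1.26 ± 0.09). The integrin Itgb2l of the same list was lower than WT_EV in both, at -2.59 ± 0.15 in dKO_PRMT1 and -3.12 ± 0.16 in dKO_EV. The direct differences between dKO_PRMT1 and dKO_EV were -1.42 ± 0.07 for Mmp9 (adjusted p = 3.85e-17), -1.45 ± 0.09 for Cxcr2 (adjusted p = 1.02e-14) and -1.71 ± 0.10 for Retnlg (adjusted p = 1.9e-16).

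**Figure D4:**
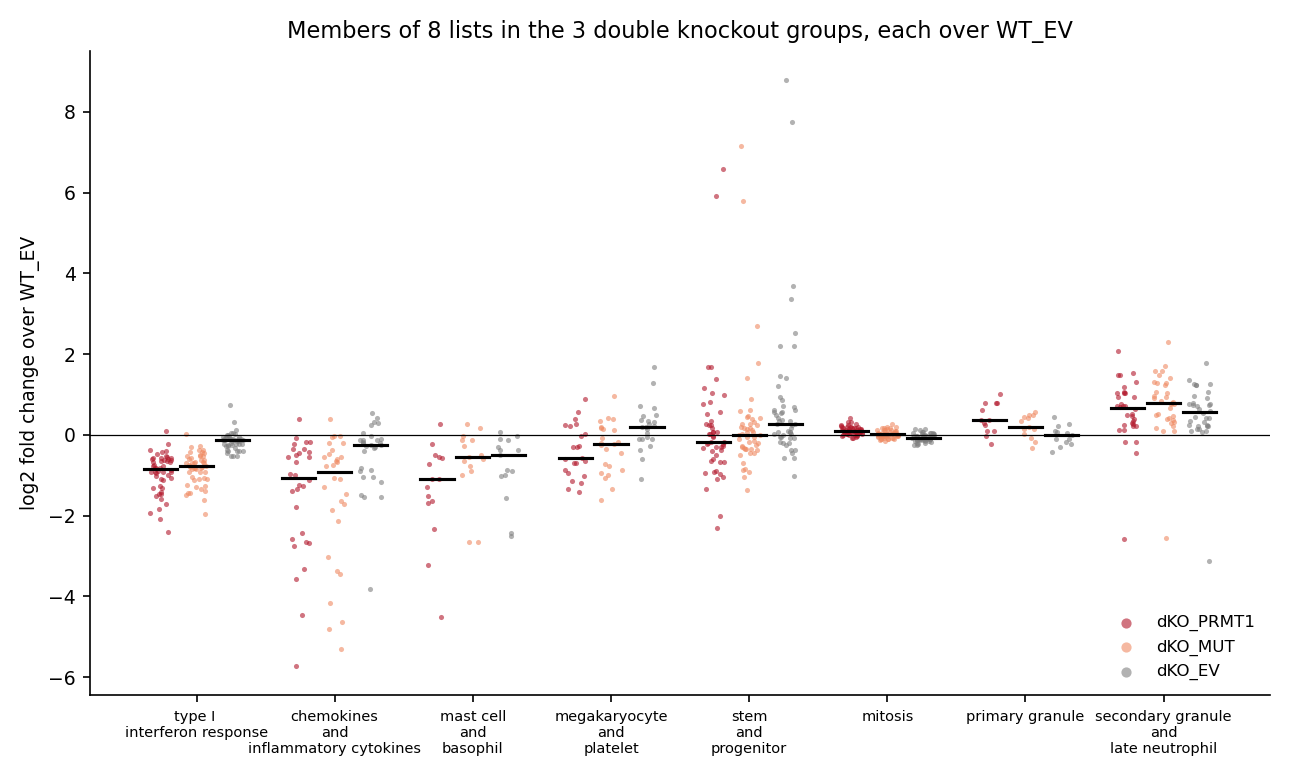
Points are the members of 8 gene lists, with the log2 fold change over WT_EV on the y axis for dKO_PRMT1 (red), dKO_MUT (orange) and dKO_EV (grey), and black bars are list medians; all 3 groups are set against the same 2 WT_EV libraries. The interferon medians are -0.84 in dKO_PRMT1, -0.77 in dKO_MUT and -0.13 in dKO_EV, and the megakaryocyte medians are -0.57 in dKO_PRMT1, -0.22 in dKO_MUT and 0.21 in dKO_EV. The topmost points of the stem and progenitor list are genes with 0 counts in WT_EV.

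Glycolytic genes were below wild type in both dKO_PRMT1 and dKO_EV. Under low oxygen HIF1 raises glycolysis through sites with the core ACGTG. In the glycolysis and hypoxia list 23 of 35 tested members fell in dKO_PRMT1 and 5 rose, at a median of -0.39, and in dKO_EV 21 fell and 3 rose, at a median of -0.41. Lactate dehydrogenase A (Ldha) had 928 and 941 CPM in dKO_PRMT1, 877 and 911 in dKO_MUT and 987 and 991 in dKO_EV, against 1682 and 1744 CPM in WT_EV (-0.87 ± 0.03 for dKO_PRMT1). Triosephosphate isomerase (Tpi1) had 488 and 511 CPM in dKO_PRMT1 and 501 and 500.0 CPM in dKO_EV, against 879 and 904 CPM in WT_EV (-0.84 ± 0.04). The mitophagy receptor Bnip3 had 33.7 and 34.1 CPM in dKO_PRMT1 and 33.6 and 34.1 CPM in dKO_EV, against 109 and 113 CPM in WT_EV (-1.71 ± 0.09). The lactate exporter Slc16a3 fell (-0.98 ± 0.06). Between dKO_PRMT1 and dKO_EV these 4 genes were not called: Ldha differed by -0.08 ± 0.03 (adjusted p = 0.108), Tpi1 by -0.0043 ± 0.04 (adjusted p = 0.96), Bnip3 by 0.0006 ± 0.10 (adjusted p = 0.999) and Slc16a3 by -0.04 ± 0.06 (adjusted p = 0.74). In that comparison 8 of the 35 members were higher in dKO_PRMT1 and 3 were lower, against 6.07% and 8.74% of all genes. The count higher was 3 and 4 without dKO_PRMT1 replicate 1 and 2, and the count lower was 1 without dKO_PRMT1 replicate 1 or dKO_EV replicate 2. The summed level was 12987 to 13058 CPM in dKO_PRMT1 and 12229.6 to 12611 CPM in dKO_EV, against 16815 to 16869 CPM in WT_EV. Ldhb rose by 1.67 ± 0.14 while Ldha fell. Hif1a itself was not called (0.03 ± 0.06, adjusted p = 0.753).

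The promoters of Ldha (chr7:46845554-46845853, plus strand) and Bnip3 (chr7:138909457-138909756, minus strand) are shown for the same reason, with the core ACGTG in capitals, read from either strand, in the same RefSeq windows of GRCm38.p6. The palindrome CACGTG holds the core on both strands and so counts 2 times. The Ldha window holds 5 matches and the Bnip3 window 2.
Ldha: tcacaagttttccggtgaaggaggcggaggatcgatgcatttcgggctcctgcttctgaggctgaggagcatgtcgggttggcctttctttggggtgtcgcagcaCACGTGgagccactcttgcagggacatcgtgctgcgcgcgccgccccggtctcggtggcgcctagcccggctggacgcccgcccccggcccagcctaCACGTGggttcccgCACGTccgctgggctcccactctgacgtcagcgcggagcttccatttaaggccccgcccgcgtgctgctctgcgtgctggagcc
Bnip3: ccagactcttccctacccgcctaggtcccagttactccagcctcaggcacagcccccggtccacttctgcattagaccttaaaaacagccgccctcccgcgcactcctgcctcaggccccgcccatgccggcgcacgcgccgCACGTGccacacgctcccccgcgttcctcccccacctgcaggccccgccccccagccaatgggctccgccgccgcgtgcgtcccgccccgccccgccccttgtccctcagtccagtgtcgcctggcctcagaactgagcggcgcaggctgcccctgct
Slc16a3 has 2 matches in its window and Tpi1 has 0, as does a further Ldha start in the table. Windows were matched for 32 of the 35 listed genes, and 24 of these (75.0%) held ACGTG. It occurs in the windows of 29.2% of the 9843 matched tested genes and in 19.6% of all 32851 windows. The list was drawn up around glycolysis and hypoxia genes, so this share describes the list and is no test of HIF1 in these data. Here too a match is not a mapped binding site.

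Genes of protein synthesis fell by small amounts. In the ribosome biogenesis and MYC list 25 of 45 tested members fell and 0 rose, at a median of -0.19. That count was 11 and 15 without WT_EV replicate 1 and 2, and 14 and 15 without dKO_PRMT1 replicate 1 and 2. Nucleolin (Ncl) had 1632 and 1718 CPM in dKO_PRMT1 and 1583 and 1658 CPM in dKO_EV, against 1939.7 and 2016 CPM in WT_EV (-0.24 ± 0.03 for dKO_PRMT1). Nucleophosmin (Npm1) fell (-0.22 ± 0.03) and Myc, the main driver of this programme, fell too (-0.22 ± 0.05). Of the 54 cytosolic ribosomal protein genes 38 fell and 0 rose, at a median of -0.14, and the count was 25 without WT_EV replicate 1 and 18 without dKO_PRMT1 replicate 1. Rpl38, the member with the smallest p, fell (-0.41 ± 0.04). Against 12.4% lower and 11.0% higher of all tested genes, the oxidative phosphorylation list had 4 of 51 members (7.84%) lower and 0 higher. That count was 2 without WT_EV replicate 1, WT_EV replicate 2 or dKO_PRMT1 replicate 2 and 7 without either dKO_EV library. With the compared libraries fitted alone 9 members were lower and 1 was higher. The electron carrier Cycs fell (-0.37 ± 0.06). A bound of 1.25-fold from WT_EV in either direction was chosen after the data were seen. The 95% interval lay within it for 47 of the 51 members, against 32.7% of all tested genes. All 51 averaged at least 5 CPM, unlike the tested genes as a whole. Intervals narrow with read depth, so these shares do not compare like with like.

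Cholesterol and fatty acid synthesis fell in 11 of 30 tested members and rose in 3, with 7 lower without WT_EV replicate 2, 0 higher without WT_EV replicate 1 or dKO_PRMT1 replicate 1, and 1 higher without WT_EV replicate 2 or dKO_PRMT1 replicate 2. The desaturase Scd1 had 5.85 and 5.90 CPM in dKO_PRMT1 and 11.3 and 11.7 CPM in dKO_EV, against 27.7 and 34.1 CPM in WT_EV (-2.39 ± 0.17 for dKO_PRMT1). The sterol exporter Abca1 fell (-1.60 ± 0.23) and the demethylase Cyp51 fell (-0.36 ± 0.05). In the amino acid and unfolded protein response list 11 of 42 fell and 6 rose, and the number that rose was 3 without any single one of the 4 libraries. The transporter subunit Slc3a2 had 194 and 189 CPM in dKO_PRMT1 and 266 and 256 CPM in dKO_EV, against 268 and 269.5 CPM in WT_EV (-0.49 ± 0.05), and its partner Slc7a5 fell (-0.35 ± 0.05).

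DNA replication is one of the processes named in the series title. Origins are licensed when ORC, Cdc6 and Cdt1 load the MCM helicase, Cdc7 with Dbf4 and Topbp1 help to fire them, and the polymerases, the clamp Pcna and the flap nucleases copy and finish the strands. In dKO_PRMT1 7 of 59 tested members were higher than in WT_EV and 2 were lower, at a median of -0.01. These shares are 11.9% and 3.39%, against 11.0% and 12.4% of all genes. The count higher was 4, 2, 2 and 4 without WT_EV replicate 1, WT_EV replicate 2, dKO_PRMT1 replicate 1 and dKO_PRMT1 replicate 2, and 4 with DESeq2, and the count lower was 1 without WT_EV replicate 1 or dKO_PRMT1 replicate 1. A 95% interval within 1.25-fold of WT_EV in either direction was found for 41 of the 59 members (69.5%), against 32.7% of all tested genes. All 59 averaged at least 5 CPM, unlike the tested genes as a whole. Intervals narrow with read depth, so these shares do not compare like with like. The summed level was 7553 to 7627 CPM in dKO_PRMT1 and 7052 to 7068 CPM in dKO_EV, against 7595 to 7639 CPM in WT_EV. The ranges of dKO_PRMT1 and WT_EV thus overlapped and dKO_EV lay below both. In dKO_MUT the sum was 7416 to 7533 CPM, between the ranges of dKO_EV and dKO_PRMT1. There 1 member (1.69%) was higher than in WT_EV and 2 (3.39%) lower, against 9.39% and 9.99% of all genes, at a median of -0.02. Between dKO_PRMT1 and dKO_MUT 2 members (3.39%) were higher in dKO_PRMT1 and 0 lower, against 1.39% and 1.75% of all genes. Neither of these calls held when any single dKO_PRMT1 or dKO_MUT library was left out.

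Single replication genes still differed. The nuclease-helicase Dna2, which trims flaps and processes stalled forks, had 111 and 109.8 CPM in dKO_PRMT1 and 95.1 and 87.0 CPM in dKO_EV, against 76.7 and 78.7 CPM in WT_EV (0.51 ± 0.07 for dKO_PRMT1, adjusted p = 2.21e-07). Topbp1 had 271 and 289 CPM in dKO_PRMT1 and 235 and 229 CPM in dKO_EV, against 239.9 and 229.6 CPM in WT_EV (0.25 ± 0.05, adjusted p = 6.61e-05). The helicase subunit Mcm5 rose by 0.15 ± 0.04 (adjusted p = 0.00484), a call that was lost without WT_EV replicate 2 (adjusted p = 0.0761) and without dKO_PRMT1 replicate 1 (adjusted p = 0.0568). Pcna fell, with 344 and 349.7 CPM in dKO_PRMT1 and 358 and 344 CPM in dKO_EV, against 386 and 402 CPM in WT_EV (-0.18 ± 0.04). The other MCM subunits, named after their values were seen, ran from -0.13 for Mcm3, the only one of them called, to -0.0009 for Mcm2 in dKO_PRMT1. In dKO_EV Mcm3 stood at -0.23 ± 0.04, Mcm7 at -0.20 ± 0.04, Mcm6 at -0.15 ± 0.04 and Mcm4 at -0.15 ± 0.05, and all 4 were called there. The direct test between dKO_PRMT1 and dKO_EV gave 0.14 ± 0.04 for Mcm7 (adjusted p = 0.0172), 0.17 ± 0.04 for Mcm5 (adjusted p = 0.00284) and 0.10 ± 0.04 for Mcm3 (adjusted p = 0.0805).

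**Figure D5:**
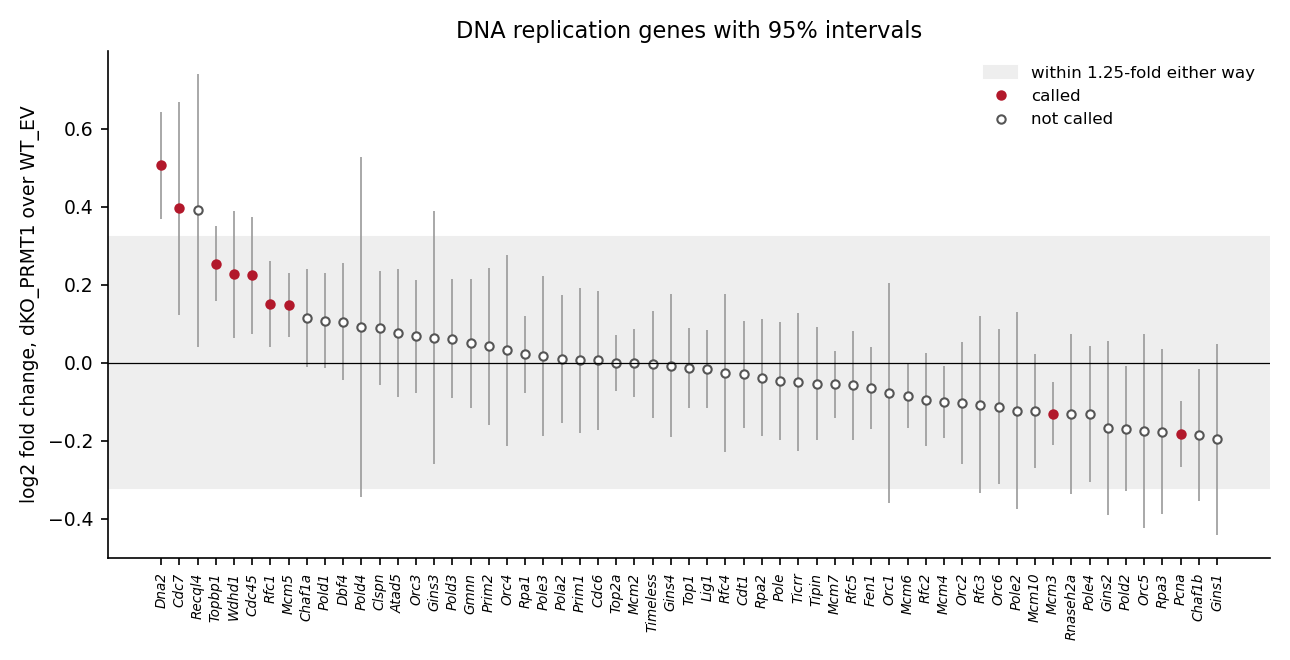
The 59 DNA replication genes are ordered by their log2 fold change, dKO_PRMT1 over WT_EV, on the y axis, with 95% intervals as bars; filled red points are called and open points are not. The grey band marks 1.25-fold in either direction, and 41 of the 59 intervals lie inside it.

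The nucleotide supply list was lower in part. Of 28 tested members 9 fell and 0 rose, at a median of -0.10, and 5 fell without WT_EV replicate 1. The sum was 4398 to 4419 CPM in dKO_PRMT1 and 4348 to 4425 CPM in dKO_EV, against 4841 CPM in both WT_EV libraries. Samhd1, which degrades deoxynucleotides, had 359 and 356 CPM in dKO_PRMT1 and 434 and 467 CPM in dKO_EV, against 443 and 440.1 CPM in WT_EV (-0.31 ± 0.04 for dKO_PRMT1). In dKO_EV Samhd1 (0.03 ± 0.04, adjusted p = 0.714) and Dck (-0.14 ± 0.06, adjusted p = 0.0755) were not called. The salvage kinase Dck fell (-0.32 ± 0.06), the nucleoside diphosphate kinase Nme1 fell (-0.29 ± 0.06) and the purine synthesis enzyme Paics fell (-0.23 ± 0.04). The ribonucleotide reductase subunits, named after their values were seen, were not called, at -0.06 ± 0.04 for Rrm1 (adjusted p = 0.261) and 0.04 ± 0.04 for Rrm2 (adjusted p = 0.585).

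Genes of recombination, checkpoints and the Fanconi pathway, which repair and protect forks, gave 1 called member of 49 in dKO_PRMT1, against 23.3% of all tested genes, at a median of 0.03. Fanca, a core Fanconi subunit, had 50.9 and 45.0 CPM in dKO_PRMT1, against 35.4 and 36.6 CPM in WT_EV (0.41 ± 0.11, adjusted p = 0.00347), and was not called without dKO_PRMT1 replicate 1 (adjusted p = 0.117). The counts were 2 higher and 2 lower without either dKO_EV library, and 1 was lower without dKO_PRMT1 replicate 2. With the compared libraries fitted alone 3 members were higher and 3 lower. Of the 49 members 18 (36.7%) had intervals within 1.25-fold of WT_EV, against 32.7% of all tested genes. For the others a difference of that size could not be set aside at this depth and number of libraries. The shares of intervals are not matched for read depth here either. Brca1, named after its value was seen, stood at -0.01 ± 0.08 in dKO_PRMT1 (adjusted p = 0.94) and at -0.26 ± 0.08 in dKO_EV (adjusted p = 0.0295).

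Mitotic genes were slightly above wild type. Of 54 tested members 12 rose in dKO_PRMT1 and 0 fell, at a median of 0.10, and 7 rose without WT_EV replicate 1 and 5 without dKO_PRMT1 replicate 1. The share that rose was 22.2%, against 11.0% of all genes. The median in dKO_EV was -0.07. The proliferation antigen Mki67 had 619 and 693 CPM in dKO_PRMT1 and 498 and 516 CPM in dKO_EV, against 586 and 529 CPM in WT_EV (0.23 ± 0.05 for dKO_PRMT1), and was not called when the compared libraries were fitted alone (adjusted p = 0.0701). The spindle motor Kif15 had 148 and 146 CPM in dKO_PRMT1 and 122 and 109.7 CPM in dKO_EV, against 111 and 111 CPM in WT_EV (0.41 ± 0.06). Foxm1, a transcription factor of G2 and M phase genes, rose by 0.33 ± 0.08 (adjusted p = 0.00114; 0.0524 without dKO_PRMT1 replicate 1), and the cytokinesis regulator Racgap1 rose by 0.23 ± 0.05. Among p53 targets, 6 of 27 (22.2%) rose and 6 (22.2%) fell, against 11.0% and 12.4% of all genes. Without WT_EV replicate 1 or dKO_PRMT1 replicate 2 only 3 rose, and the number that fell was 2 without WT_EV replicate 2 and 3 without any other single one of the 4 libraries. Plk2 had 6.36 and 7.62 CPM in dKO_PRMT1, against 23.9 and 23.4 CPM in WT_EV (-1.76 ± 0.19), and the death gene Pmaip1 (Noxa) fell (-0.61 ± 0.11), while the p53 inhibitor Mdm4 rose by 0.41 ± 0.07 and Trp53inp1 by 0.49 ± 0.09.

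Stem and progenitor genes were divided, with 8 of 49 tested members higher in dKO_PRMT1 and 19 lower, at a median of -0.16, which does not change with the members at 0 counts in WT_EV set to their lower bound. In dKO_EV 19 were higher and 6 lower, at a median of 0.27. Gata2, a transcription factor of stem cells and mast cell precursors, had 129 and 110.0 CPM in dKO_PRMT1 and 205 and 186 CPM in dKO_EV, against 255 and 251 CPM in WT_EV (-1.08 ± 0.06 for dKO_PRMT1). The stem cell antigen Ly6a (Sca-1) had 169 and 173 CPM in dKO_PRMT1 and 246 and 263 CPM in dKO_EV, against 271 and 261 CPM in WT_EV (-0.64 ± 0.05). It is also raised by interferon in mouse cells. Gfi1 had 134 and 142 CPM in dKO_PRMT1 and 84.3 and 88.4 CPM in dKO_EV, against 66.5 and 68.9 CPM in WT_EV (1.03 ± 0.07). The STAT5 target Cish had 71.1 and 61.9 CPM in dKO_PRMT1 and 70.6 and 68.9 CPM in dKO_EV, against 30.1 and 29.5 CPM in WT_EV (1.15 ± 0.09), with no call between dKO_PRMT1 and dKO_EV (adjusted p = 0.678). The stem cell factor Mecom, named after its values were seen, had 2.53 and 2.87 CPM in dKO_PRMT1 and 8.66 and 9.70 CPM in dKO_EV, against 1.22 and 2.00 CPM in WT_EV. It was not called in dKO_PRMT1 (0.75 ± 0.35, adjusted p = 0.12) and differed between dKO_PRMT1 and dKO_EV by -1.76 ± 0.30 (adjusted p = 4.19e-05).

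In the Hox and Meis list 8 of 29 tested members (27.6%) fell and 4 (13.8%) rose, against 12.4% and 11.0% of all genes. The count that fell was 4, 5, 5 and 3 without WT_EV replicate 1, WT_EV replicate 2, dKO_PRMT1 replicate 1 and dKO_PRMT1 replicate 2, and the count that rose was 2 without WT_EV replicate 1 and with genes under 10 CPM left out. Besides Hoxa9, the receptor kinase Flt3 had 17.3 and 18.4 CPM in dKO_PRMT1 and 15.9 and 17.9 CPM in dKO_EV, against 36.3 and 32.7 CPM in WT_EV (-0.95 ± 0.14), and the progenitor factor Sox4 fell (-0.68 ± 0.11). Named after its values were seen, the Hoxa9 cofactor gene Meis1 fell in dKO_PRMT1 (-0.33 ± 0.12) and rose in dKO_EV (0.42 ± 0.12). It differed between dKO_PRMT1 and dKO_EV with adjusted p = 1.12e-05. Hoxb5 had 12 and 12 counts in dKO_PRMT1, against 0 counts in both WT_EV libraries, which is at least 3.91-fold higher against a floor of 3 counts in each.

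Wnt pathway genes were called about as often as all genes. Of 36 tested members 4 fell and 3 rose, but 0 rose without WT_EV replicate 2, 1 rose without dKO_PRMT1 replicate 1 and 6 rose without either dKO_EV library. Cyclin D1 (Ccnd1), a textbook target of beta-catenin, had 64.2 and 63.9 CPM in dKO_PRMT1 and 93.6 and 97.4 CPM in dKO_EV, against 103 and 105 CPM in WT_EV (-0.70 ± 0.07 for dKO_PRMT1). Cd44 fell (-0.22 ± 0.04). Plakoglobin (Jup), the close relative of beta-catenin, was named after its value was seen and was not called, at -0.27 ± 0.19 (adjusted p = 0.361). Among the arginine methyltransferases and their partners 1 of 17 rose, Prmt1, and 3 (17.6%) fell, or 5 without either dKO_EV library, against 11.0% higher and 12.4% lower of all tested genes. These were Btg1, which binds PRMT1 (-0.41 ± 0.05), the salvage enzyme Mtap (-0.40 ± 0.09; adjusted p = 0.0777 without dKO_PRMT1 replicate 1) and Prmt2, at 3.47 and 3.24 CPM in dKO_PRMT1 and 5.84 and 6.37 CPM in dKO_EV, against 7.14 and 7.12 CPM in WT_EV (-1.09 ± 0.27). Prmt5, the main symmetric dimethylation enzyme, was named after its value was seen and was not called (-0.17 ± 0.06, adjusted p = 0.0525).

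Signalling and matrix lists moved in both directions. Members higher and lower were 27.5% and 22.5% in the cytokine receptor list and 32.1% and 35.7% in the immediate early list. They were 22.5% and 40% in the matrix list, against 11.0% and 12.4% of all tested genes. Of 40 cytokine receptor and STAT5 feedback genes 11 rose and 9 fell, with the interferon gamma receptor Ifngr1 among those that rose (0.54 ± 0.04). Of 28 immediate early genes 9 rose and 10 fell (5 without dKO_PRMT1 replicate 2). The stress factor Atf3 fell, with 44.1 and 39.3 CPM in dKO_PRMT1 and 75.1 and 68.8 CPM in dKO_EV, against 75.5 and 76.1 CPM in WT_EV (-0.86 ± 0.09), as did Klf6 (-0.48 ± 0.05) and the G protein regulator Rgs1 (-1.48 ± 0.17), while Klf4 rose by 0.70 ± 0.08. Of 40 matrix and adhesion genes 16 fell and 9 rose. The collagenase Mmp13 had 6.05 and 8.98 CPM in dKO_PRMT1 and 19.9 and 17.5 CPM in dKO_EV, against 69.8 and 68.5 CPM in WT_EV (-3.20 ± 0.16), and the macrophage elastase Mmp12 fell (-1.26 ± 0.06). Fibronectin (Fn1) rose, with 215 and 222 CPM in dKO_PRMT1 and 127 and 130.2 CPM in dKO_EV, against 87.7 and 75.2 CPM in WT_EV (1.42 ± 0.06).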

How the data were processed

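RNA of mouse HSPCs was extracted with the RNeasy Plus Micro kit and made into libraries with a directional kit, per the labels' protocols. The authors deposited 1 table of raw read counts per gene for 8 libraries, in 4 groups of 2. Trim Galore 0.6.6, STAR 2.7.6a, featureCounts and GRCm38 are named in the submitters' processing notes, while the annotation used and the strand setting were not given in the sources used here. Overlapping or antisense genes and close paralogs may therefore share reads.

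From the deposited counts, the 1126 rows on X, Y or unplaced sequence were left out. Libraries were scaled by TMM, genes were kept with filterByExpr, and 1 edgeR 4.0.16 quasi-likelihood model (robust, R 4.3.3) with group as the only term covered all 8 libraries, which leaves 4 residual degrees of freedom. P-values were adjusted by Benjamini-Hochberg over the 12317 genes tested, with a threshold of 0.05, and all tests were two-sided. No 2 libraries of a group were duplicates within counting noise. Intervals are 95% intervals of the model, and a floor of 3 counts covers counting error only. The code was tested on simulated counts.

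Named genes are Prmt1, Ctnnb1 and Hoxa9, the top 12 called genes in each direction by log2 fold change that averaged at least 5 CPM in groups without overlap, and up to 4 called members of each of 32 lists with the smallest p. Genes with only a predicted-gene or clone name, such as Gm, LOC or Rik symbols, were left out of the ranking by fold change. Other genes are marked as named after their values were seen, except cell markers and members of a count that is given whole. Members and lists were chosen with earlier results of these data known. Of 1069 listed symbols 983 were tested. The rest were not autosomal, not symbols of the table or too low. Groups were taken from the sample titles. DESeq2 1.42.0, limma 3.58.1 voom, other scalings, filters and fits and the loss of each library were tried as alternatives.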

Additional observations from a re-analysis of the deposited data

Results flagged for a closer look

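Outside the autosomal rows used for the comparison, 4 Y-linked genes with 0 counts in both WT_EV libraries were present in dKO_PRMT1. Their mean levels there were 66.5 CPM for Ddx3y, 59.2 CPM for Eif2s3y, 28.2 CPM for Kdm5d and 23.7 CPM for Uty. Xist had 0 counts in both dKO_PRMT1 libraries, against 159 and 121 CPM in WT_EV. Genotype and the sex of the source cells therefore cannot be told apart in dKO_PRMT1 against WT_EV, and the part of sex in the autosomal differences was not tested. The contrasts of dKO_PRMT1 with dKO_EV and with dKO_MUT are between groups of the same pattern.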

How the results depend on the processing

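Over 17 other settings, 8 of which left out 1 library, no called gene named by the rule changed direction. Of the 131 named genes 121 kept their call in every setting in which they were tested. A named gene that a setting filtered out was not counted in that setting. Over all tested genes, the counts of dKO_PRMT1 against WT_EV stayed within 1.5 times their main value except where stated here. Counts of single lists moved further than that in some settings, not all of which are given. Keeping only genes with at least 10 CPM in 2 libraries gave 233 genes at 2-fold or more, against 504. It left 9004 genes tested, against 12317, and 2618 called, against 2875, so the count at 2-fold or more fell the most in proportion. With 1 library left out, the called genes ran from 1890 to 3274, those higher from 869 to 1571, those lower from 1021 to 1703 and those at 2-fold or more from 389 to 543. The same ranges were 1110 to 1916 for dKO_EV against WT_EV, 1035 to 1883 for dKO_PRMT1 against dKO_EV, 1591 to 2717 for dKO_MUT against WT_EV and 173 to 535 for dKO_PRMT1 against dKO_MUT, where the alternatives were chosen after seeing the data. DESeq2 called 2446 genes, limma voom 2911 and edgeR on the compared libraries alone 3637. Scaling by library totals gave 51.1% of called genes as higher, against 46.9%, and moved the median of all genes to 0.0157. A group left with 1 library is assumed to vary like the others. Calls lost in at least 1 setting were those of Ndufb8, Igll1, Ccr3, Epx, Mki67, Sdhc, Mcm5, Fanca, Foxm1 and Mtap, and the cause was not tested. Same-numbered libraries did not deviate together (correlations from -0.033 to 0.026), so the numbers were not taken as pairs, and the fit with the replicate block called 2856 genes, 1338 higher and 1518 lower, with 496 at 2-fold or more. The block gave 1874, 1807, 2372 and 393 called genes for the other comparisons, in the order above. With 2 libraries a group, small differences of genes at low counts are beyond what this depth shows.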
